A study of Mus musculus with 12 samples.

Results

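What differentiation reaches in the presence of cancer medium was described by comparing 3T3-L1 cells taken through differentiation with medium from p53 wild-type WEP cells (WT CM, for conditioned medium) with undifferentiated 3T3-L1 cells. The comparison takes 3 libraries of each group, 6 of the 12 in the series, chosen by their labels, and covers all genes of the deposited table. 3T3-L1 is an established mouse line of preadipocytes that become fat-storing adipocytes under hormonal inducers, and WEP are breast cancer cells. The series asked how loss of p53 in WEP cells alters adipocyte differentiation. It also holds 3 libraries of regularly differentiated cells, used here for side by side values, and 3 from medium of p53-knockout WEP cells, which are not described here but enter the estimate of the spread.

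All groups are 3T3-L1 cells labelled WT in genotype, and p53 was altered only in the WEP cells that made the medium. Undifferentiated cells, labelled preadipocyte, grew in DMEM with 10% calf serum and had no treatment. Differentiated cells were induced 2 days after confluence in 10% fetal bovine serum with 2 µM rosiglitazone, 1 µM dexamethasone, 1 µg/mL insulin and 0.5 mM 3-isobutyl-1-methylxanthine. After 2 days they received insulin alone for 2 days and then maintenance medium. In the WT CM group, filtered medium from WEP cells was mixed in equal parts into the medium of each step, so the inducers were also diluted there. Serum, inducers, time and conditioned medium all changed together between WT CM and undifferentiated cells, and their shares in any difference below cannot be told apart. The dilution of the inducers and the conditioned medium likewise cannot be told apart between WT CM and regular differentiation. The labels do not say that libraries of a group came from separate cultures, so p-values rest on the spread between these libraries alone, possibly a technical one. 3T3-L1 is 1 cell line, and it stands for no tissue with other cell types.

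Adipogenesis in these cells runs from early regulators such as C/EBP-beta to PPAR-gamma (Pparg) and C/EBP-alpha (Cebpa), which then hold each other's expression and switch on genes of fat storage and insulin-dependent glucose uptake. Cells leave the cell cycle on the way, and usually give up much of the fibroblast programme of matrix, contractile and progenitor genes. Fat cells and their precursors can also secrete acute phase proteins, complement and cytokines when exposed to inflammatory signals.

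Libraries held 1289754 to 1722617 UMIs in undifferentiated cells and 1551876 to 2278126 with WT CM (1101307 to 2589045 after regular differentiation). Across genes, which are not independent replicates, log2 CPM of WT CM and undifferentiated libraries correlated at 0.828 to 0.845, against 0.974 to 0.977 among WT CM libraries and 0.976 to 0.980 among undifferentiated ones. WT CM replicate 3 stood apart in a few genes with many near-identical copies: Gapdh was at 3135, 3284 and 114 CPM in WT CM replicates 1 to 3 and at 800.0, 81.5 and 76.1 CPM in the undifferentiated libraries, and Pgk1 at 102, 112 and 20.3 CPM with WT CM. Levels of Gapdh, Pgk1, Eno1, ribosomal protein genes and the Serpina3, Saa, Orm and Ifit families are uncertain for that reason, and since strand use in counting is not stated, overlapping genes on opposite strands cannot be told apart. Adipocyte marker levels went with the labels, and the preadipocyte markers were not lower in sum with WT CM. The summed level of 12 adipocyte markers was 178 to 208 CPM in undifferentiated libraries and 21900 to 22100 CPM with WT CM. The 11 preadipocyte markers in the table summed to 1150 to 1170 CPM in undifferentiated cells and 1260 to 1350 CPM with WT CM, where Cd34 was at 0, and of 10 tested 5 were called lower and 2 higher. Of 12 epithelial markers, which WEP cells carried over with the medium could add, Krt8, Krt18 and Krt19 were in the table and summed to 3.6 to 6.24 CPM in undifferentiated cells and 14.5 to 23.9 CPM with WT CM, with 45.7 to 56.1 CPM after regular differentiation without any cancer medium. The 4 of 12 macrophage markers in the table summed to 16.4 to 17.7 and 13.6 to 14.2 CPM, and none of 7 endothelial markers was in the table.

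A gene was called higher or lower when the Benjamini-Hochberg adjusted p of edgeR's quasi-likelihood test was under 0.05. WT CM cells had 2612 genes higher (27.9%) and 1942 lower (20.7%) than undifferentiated cells, of 9378 tested. These shares are the background for the list counts below. Changes of at least 1 on the log2 scale numbered 1204 higher (12.8%) and 619 lower (6.6%), and those of at least 3 numbered 255 higher and 41 lower. The median log2 fold change was 0.06 over all tested genes and the median size was 0.83 among those called. Regular differentiation against the same undifferentiated libraries gave 2774 genes higher (29.6%) and 2630 lower (28.0%). WT CM set directly against regular differentiation, which is the test of the difference between both outcomes, gave 1614 genes higher (17.2%) and 1441 lower (15.4%). The balance of directions depends on how libraries are scaled: on total counts instead of TMM, WT CM had 1902 genes higher and 3004 lower than undifferentiated cells, so that the higher share of calls was 38.8% instead of 57.4%, with the median over all genes shifted by -0.20.

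**Figure D1:**
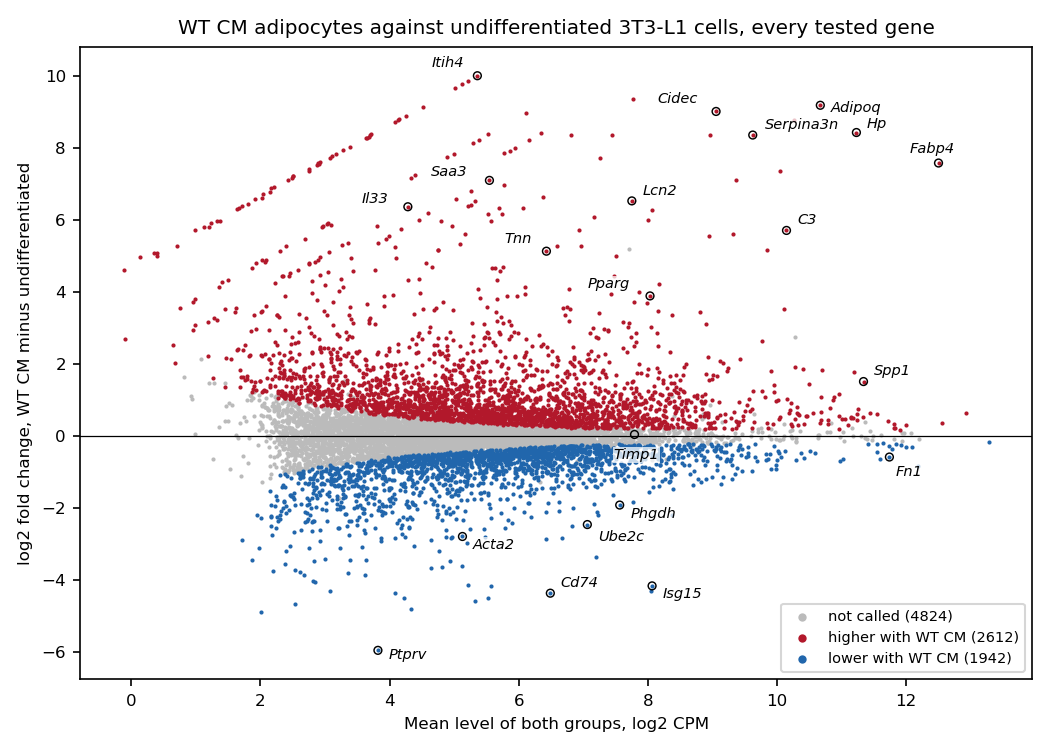
Each point is 1 of 9378 tested genes, with the mean level of both groups (log2 CPM) on the x axis and the log2 fold change of WT CM against undifferentiated cells on the y axis. The 2612 genes called higher are red, the 1942 called lower are blue and the others grey. The parallel bands at the upper left are genes with 0 or a few counts in all undifferentiated libraries, whose fitted fold changes depend on the prior count.

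The core of the adipocyte programme was switched on in cancer medium. Pparg, the nuclear receptor that directs adipogenesis and the target of rosiglitazone, was at 34, 31.9 and 32.4 CPM in the undifferentiated libraries and 444, 491 and 539 CPM in the WT CM libraries. The groups were far apart, with a log2 fold change of 3.90 ± 0.11 (15-fold), while regular differentiation reached 803 ± 28.8 CPM. Its partner Cebpa was at 5.11, 4.96 and 4.11 CPM in the undifferentiated libraries and 195, 173 and 196 CPM in the WT CM libraries, a change of 5.30 ± 0.18. The adipokine gene Adipoq, which encodes adiponectin, was at 8.51, 2.83 and 4.63 CPM in the undifferentiated libraries and 3308, 3283 and 3173 CPM in the WT CM libraries, a change of 9.20 ± 0.14. All WT CM libraries lay far above all undifferentiated ones, and still at 49.1% of the level of regular differentiation (6633 ± 256 CPM, log2 difference -1.03 ± 0.09). Cidec, which fuses lipid droplets into large ones, was at 2.27, 2.83 and 1.03 CPM in the undifferentiated libraries and 1084, 1076 and 1029 CPM in the WT CM libraries, a change of 9.03 ± 0.16, and reached 30.5% of regular differentiation (-1.71 ± 0.09). Fabp4, a fatty acid carrier, went from 59.4 ± 5.42 to 11534 ± 272 CPM (n = 3 each), a change of 7.60 ± 0.09, 78.5% of the regular level. The adjusted p of Pparg, Cebpa, Adipoq, Cidec and Fabp4 was at most 3.08e-28 by edgeR's quasi-likelihood test. In bulk libraries, fewer adipocytes and less RNA of a gene per adipocyte cannot be told apart.

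Of 14 tested transcription factors of adipogenesis, 12 rose and 1 fell, with a median log2 fold change of 1.62 (regular differentiation 2.08, all genes 0.06). Klf15, induced by glucocorticoids, had 1 count in all undifferentiated libraries and 71.6, 82.4 and 81.1 CPM with WT CM, a count ratio of 404 (72 to 15977), where brackets give the 95% counting interval. Zbtb16 had 3 counts in undifferentiated cells, a count ratio of 84.8 (28.7 to 414). The liver X receptor gene Nr1h3 rose by 3.15 ± 0.17 and Srebf1, which drives lipid synthesis, by 2.06 ± 0.12. Cebpb, the early regulator, rose by 0.42 ± 0.08, and Klf5 fell by 1.23 ± 0.36. Against regular differentiation, 7 of the 14 were lower, and only Cebpb was called higher (0.21 ± 0.08). All 11 tested genes of adipokines and other secreted adipocyte proteins rose (median 4.04, regular 4.14). Of these, 6 were lower and 1 was higher than after regular differentiation. Retn, which encodes resistin, had a count ratio of 746 (255 to 3622), and Cfd, the complement protease adipsin, rose by 8.79 ± 0.27 (9.45 without undifferentiated replicate 1). Angptl4, an inhibitor of lipoprotein lipase, rose from 174 ± 12.5 to 2027 ± 162 CPM (3.54 ± 0.09) and stood above regular differentiation (1017 ± 33.7 CPM, 0.99 ± 0.08).

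Genes of fat storage rose as a group and mostly stopped short of the regular level. All 16 tested genes of lipid droplets and lipolysis rose, with a median of 3.89 (regular 4.30). The droplet coat gene Plin1 was at 172, 173 and 139.7 CPM with WT CM against 2 counts in all undifferentiated libraries, a count ratio of 405 (112 to 3354). Lipe, the hormone-sensitive lipase, rose by 6.30 ± 0.24 and the first lipase of triglyceride breakdown, Pnpla2, by 5.63 ± 0.11. The beta-3 adrenergic receptor gene Adrb3 had no undifferentiated counts and was at least 65.5-fold higher. Against regular differentiation, 9 of the 16 were lower and 1 was higher. Fatty acid uptake and binding had 9 of 11 members higher and 1 lower, the latter a call lost in 7 alternatives, with a median of 3.03. The scavenger receptor gene Cd36, which takes up fatty acids, rose by 5.63 ± 0.39 and did not differ from the regular level beyond the test (-0.14 ± 0.19, adjusted p = 0.631). In fatty acid and triglyceride synthesis 17 rose and 1 fell of 22, with a median of 1.42, and 16 were lower than after regular differentiation. Gpd1, which makes glycerol phosphate, rose by 8.38 ± 0.16, Scd1, which puts the double bond into stearate, by 5.18 ± 0.12, and Thrsp, a lipogenic regulator, by 6.97 ± 0.26. Their levels were 35%, 82.4% and 15.7% of the regular ones. Acly, which makes cytosolic acetyl-CoA, had a change of -0.04 ± 0.10 (95% interval -0.24 to 0.15, adjusted p = 0.733, called lower at -0.25 on total counts) and was lower than after regular differentiation (-0.55 ± 0.09). Elovl6, a fatty acid elongase, fell by 1.13 ± 0.31. Of 13 genes of glucose uptake and insulin signalling, 12 rose and 1 fell. Slc2a4, the insulin-regulated glucose transporter GLUT4, was at 106, 112 and 110.2 CPM against 2 counts in undifferentiated cells, a count ratio of 281 (77.3 to 2323) and 39.7% of the regular level. Grb14, an adaptor that restrains the insulin receptor, fell by 0.54 ± 0.20, a call lost without WT CM replicate 2 or without undifferentiated replicate 2 or 3 (-0.48, -0.47 and -0.52).

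**Figure D2:**
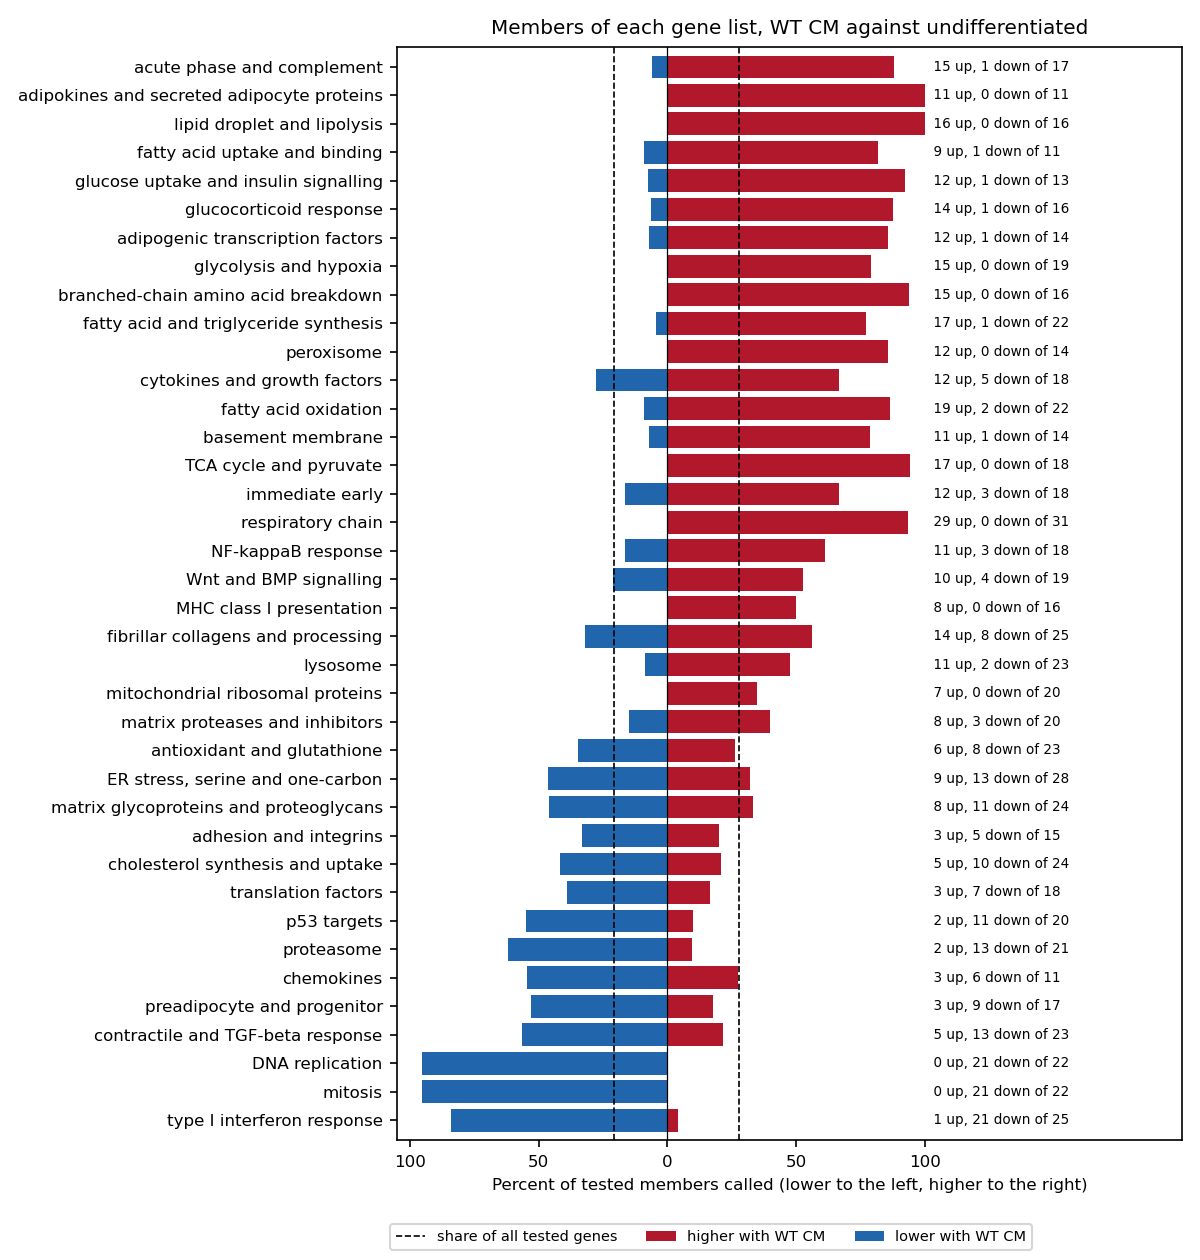
Bars give the percent of tested members of each gene list that were called higher (right, red) or lower (left, blue) with WT CM than in undifferentiated cells, with the numbers at the right. Dashed lines mark the 27.9% higher and 20.7% lower among all tested genes. Lists with at least 10 tested members are shown, ordered by median log2 fold change from acute phase and complement at 5.30 to the type I interferon response at -2.41.

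Mitochondrial genes also rose, and most were lower than after regular differentiation. In fatty acid oxidation 19 rose and 2 fell of 22 (median 1.08, regular 1.72). Acadm, the medium-chain dehydrogenase, was at 73.8, 61.6 and 66.8 CPM in the undifferentiated libraries and 356, 359 and 317 CPM in the WT CM libraries, a change of 2.34 ± 0.11, and reached 49.7% of the regular level. Cpt1a, the carnitine transferase at the entry to mitochondria, fell by 0.56 ± 0.14. It had fallen further after regular differentiation (-2.20). Of 18 genes of the TCA cycle and pyruvate, 17 rose and none fell (median 0.90). Pdk4, which restrains pyruvate oxidation, rose by 1.99 ± 0.23, and was the only member called above regular differentiation (0.52 ± 0.19). Of 31 nuclear genes of the respiratory chain, 29 rose and none fell (median 0.72, regular 1.39), and all 31 were lower than after regular differentiation. Cox4i1, of complex IV, was at 635, 722 and 678 CPM in the undifferentiated libraries and 1480.5, 1413 and 1149 CPM in the WT CM libraries, a change of 0.99 ± 0.08, and at 52.3% of the regular level. Ndufa4 and Cox5a were not called (-0.05 ± 0.13 and 0.09 ± 0.09). Breakdown of branched-chain amino acids had 15 of 16 members higher and none lower (median 1.46, regular 2.05), led by Aldh6a1 of valine breakdown (3.36 ± 0.15). Peroxisomes had 12 of 14 higher and none lower (median 1.36), among them Pex11a, which divides peroxisomes (3.13 ± 0.19). Mitochondrial ribosomal proteins had 7 of 20 higher, near the background of 27.9%, and a median of 0.15 that turned to -0.05 when scaled on total counts. Of 15 thermogenic markers listed, only 6 were in the table and 4 were tested. These were Cox8b, Cox7a1, Kcnk3 and Tnfrsf9, and all rose. Cox8b started from 0 counts and was at least 12.8-fold higher (7.53 ± 1.57 CPM, 18.2% of the regular level). Tnfrsf9, a TNF receptor family member, was at 19.1, 11.6 and 18.5 CPM with WT CM, a count ratio of 85.2 (14.9 to 3401) against undifferentiated cells, and at 0.305 CPM after regular differentiation. Glycolysis and hypoxia genes had 15 of 19 higher and none lower (median 1.50, 1 lower on total counts), led by the mitophagy gene Bnip3 (3.37 ± 0.11) and the oxygen-sensing hydroxylase Egln3 (3.21 ± 0.14).

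**Figure D3:**
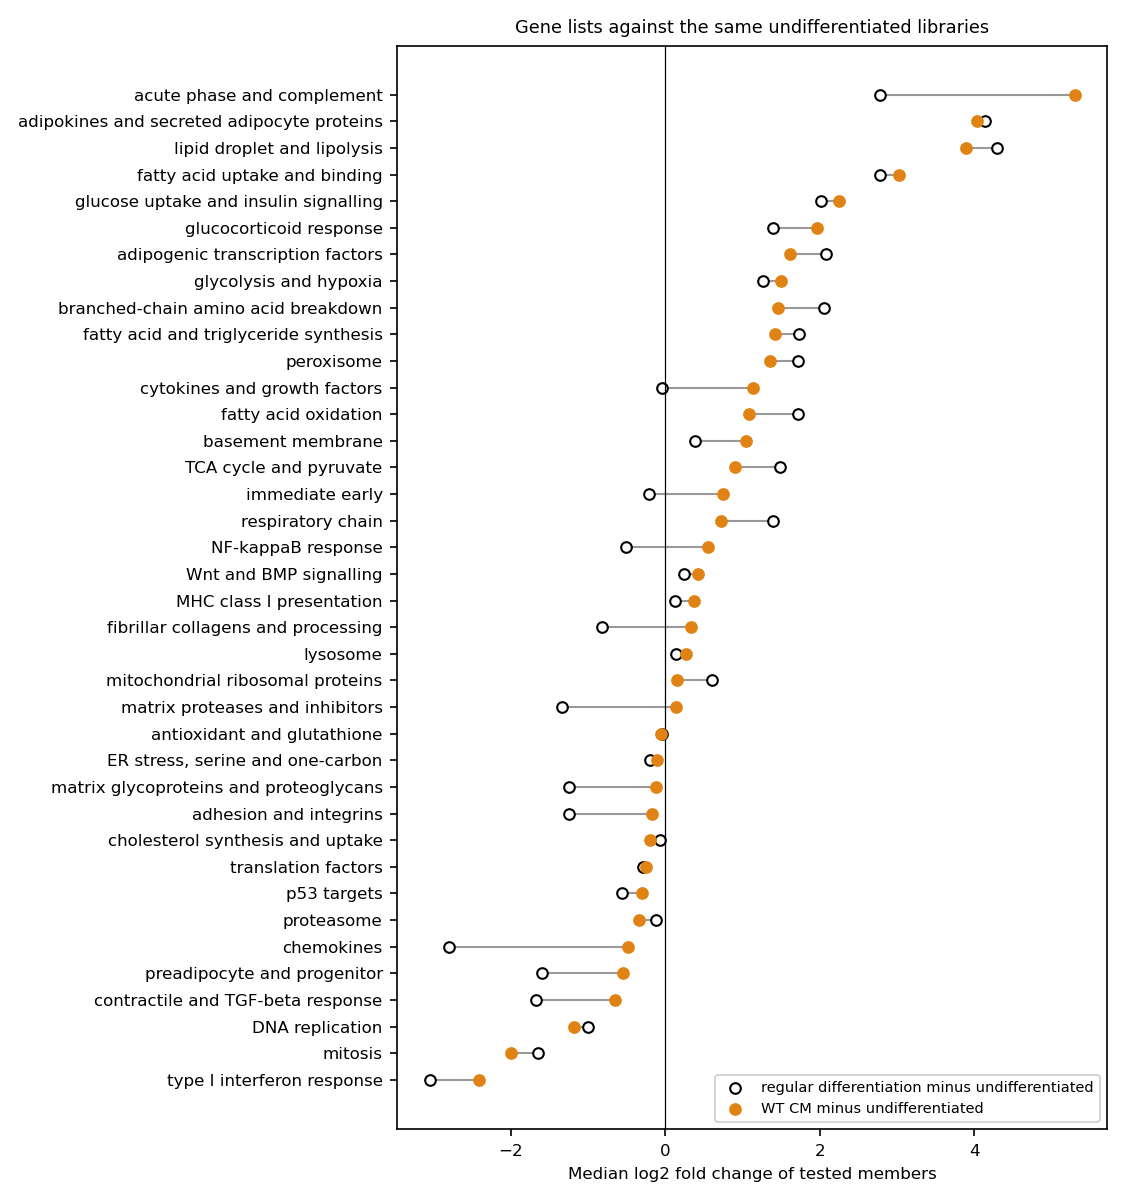
Median log2 fold change of the tested members of each list with at least 10 of them, for WT CM (filled) and regular differentiation (open), each against the same 3 undifferentiated libraries, so that the positions are not independent of each other. The adipokine medians lie close together (4.04 and 4.14). In the direct test, however, 6 of 11 adipokine genes were lower and 1 higher with WT CM than after regular differentiation. The medians of chemokines (-0.48 and -2.80) and acute phase genes (5.30 and 2.78) lie far apart.

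Acute phase and complement genes had the highest median of the lists with at least 10 tested members. Of 17 tested, 15 rose and 1 fell, with a median of 5.30 (4.85 with genes at 0 set at their bound), and 13 were also higher than after regular differentiation. Hp, which encodes the hemoglobin scavenger haptoglobin, was at 17.6, 12.8 and 10.8 CPM in the undifferentiated libraries and 4661, 4696 and 5010.1 CPM in the WT CM libraries. That is a change of 8.44 ± 0.18, and regular differentiation reached 338 ± 19.7 CPM. Lcn2, lipocalin 2, which binds bacterial iron carriers, was at 4.54, 4.96 and 4.11 CPM in the undifferentiated libraries and 419, 439 and 422 CPM in the WT CM libraries, a change of 6.54 ± 0.19 or 93.3-fold. The serum amyloid gene Saa3 was at 1.13, 0.708 and 0 CPM in the undifferentiated libraries and 96.1, 104 and 78.9 CPM in the WT CM libraries, a count ratio of 155 (52.8 to 755), with 1.5 ± 1.11 CPM after regular differentiation. Serpina3n, a secreted protease inhibitor, rose from 4.44 ± 2.63 to 1574 ± 119 CPM (8.37 ± 0.16), against 61.1 ± 3.23 CPM after regular differentiation. In none of Hp, Lcn2, Saa3 and Serpina3n did a WT CM library overlap with the undifferentiated ones. This held for many other genes, with 2854 of 9378 tested wholly above and 2269 wholly below. Complement C3 was at 44.3, 38.3 and 43.2 CPM in the undifferentiated libraries and 2217, 2254 and 2207 CPM in the WT CM libraries (5.72 ± 0.10), with regular differentiation lower (1894 ± 62.3 CPM, 0.23 ± 0.07). C4b had 1 count in all undifferentiated libraries and 130.2, 164 and 122 CPM with WT CM, a count ratio of 699 (125 to 27636). Itih4, a secreted acute phase protein, and Serpina3m started from 0 counts and gained at least 140.2-fold and 119-fold. Ptx3, a secreted pattern recognition protein, fell by 1.08 ± 0.12. The adjusted p of the genes named here was at most 9.10e-11 by edgeR's quasi-likelihood test.

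The promoters of Saa3, Lcn2 and C3 are shown because these acute phase genes rose together and each holds the letters TTGCNNAA, a C/EBP-type motif searched on both strands and given in capitals. Sequences are from RefSeq on GRCm38.p6, 5′ to 3′ on the gene's strand, from 250 bases before to 50 bases after the annotated start (Saa3 at chr7:46715627-46715926, minus strand, Lcn2 at chr2:32387690-32387989, minus strand, C3 at chr17:57228087-57228386, minus strand).
Saa3: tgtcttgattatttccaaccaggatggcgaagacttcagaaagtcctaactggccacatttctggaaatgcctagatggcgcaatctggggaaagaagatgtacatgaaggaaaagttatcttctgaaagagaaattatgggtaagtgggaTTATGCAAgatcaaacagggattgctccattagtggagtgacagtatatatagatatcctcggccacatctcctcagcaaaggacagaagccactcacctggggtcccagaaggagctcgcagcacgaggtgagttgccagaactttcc
Lcn2: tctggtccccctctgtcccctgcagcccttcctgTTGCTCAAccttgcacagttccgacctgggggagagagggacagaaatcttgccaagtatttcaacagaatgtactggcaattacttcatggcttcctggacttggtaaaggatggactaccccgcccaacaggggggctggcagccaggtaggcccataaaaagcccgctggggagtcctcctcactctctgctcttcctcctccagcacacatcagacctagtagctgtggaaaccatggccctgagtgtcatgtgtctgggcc
C3: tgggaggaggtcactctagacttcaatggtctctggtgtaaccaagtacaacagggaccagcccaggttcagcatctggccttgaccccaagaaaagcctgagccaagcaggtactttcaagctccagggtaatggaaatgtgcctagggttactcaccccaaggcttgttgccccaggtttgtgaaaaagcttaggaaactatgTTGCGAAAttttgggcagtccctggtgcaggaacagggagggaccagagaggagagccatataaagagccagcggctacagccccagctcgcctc
The first base of the match lies at -99 in Saa3, -216 in Lcn2 and -45 in C3, relative to the start. Of the 17 tested acute phase genes, 12 had a promoter in the table and 8 of these held the letters, against 9.81% of 7562 tested genes with a promoter and 10.8% of all 32851 promoters. Other motifs and gene sets were searched too, and the motifs given here and below are only a part of that search. Of the same 12 promoters, 1 held NF-kappaB letters, 2 held AP-1 letters and 0 held STAT letters. The shares among tested genes with a promoter were 1.48%, 5.94% and 1.51%. Of 8 adipokine genes with a promoter, 0 held the C/EBP letters, against the same 9.81%. With so few promoters, a count of 0 cannot be told apart from such shares. A match is a description of the sequence, and factor binding was not measured.

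Among cytokines and growth factors 12 rose and 5 fell of 18 tested (median 1.13, regular -0.05). Il33, an alarmin of the IL-1 family, was at 0.567, 0.708 and 0 CPM in the undifferentiated libraries and 38.9, 30.9 and 45.8 CPM in the WT CM libraries, a count ratio of 101 (27.6 to 841), and at 0.26 CPM after regular differentiation. Tnfsf11, which encodes RANKL, had no counts in undifferentiated or regular libraries and 13.6, 13.5 and 17.6 CPM with WT CM, at least 25.5-fold higher than in undifferentiated cells. Igfbp4, an IGF-binding protein, rose from 224 ± 34 to 923 ± 29.6 CPM (2.05 ± 0.09). Grem1, a secreted BMP antagonist, rose by 0.68 ± 0.16, and regular differentiation had 1.47 CPM. The growth factor genes Fgf7, Pdgfa and Csf1, which acts on macrophages, fell (-1.64 ± 0.15, -1.32 ± 0.11 and -0.89 ± 0.09). Other genes higher than in both undifferentiated and regularly differentiated cells were Chil1, a chitinase-like protein (no counts in undifferentiated cells, at least 60.8-fold higher), Slc10a6, a carrier of sulfated steroids (count ratio 47.1 (15.8 to 231)), the LPS-binding protein gene Lbp (53.2 (17.9 to 261)) and A4galt, which makes the glycolipid Gb3 (4.96 ± 0.42, or 4.26 without undifferentiated replicate 3). Their log2 differences from regular differentiation were 5.42, 4.53, 3.75 and 5.02.

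**Figure D4:**
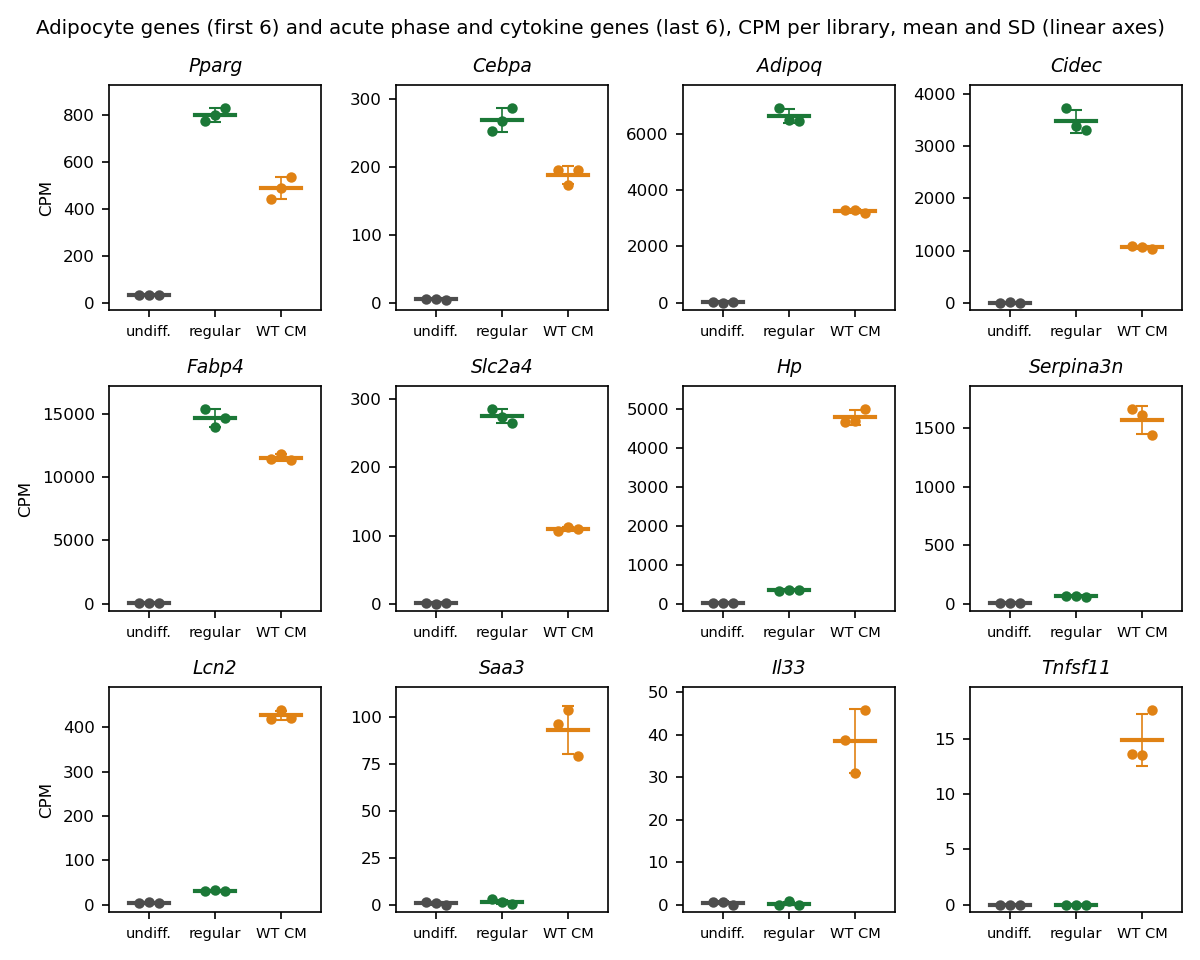
CPM of 12 genes in each library of undifferentiated cells (grey), regular differentiation (green) and WT CM (orange), on linear axes starting at 0, with points for libraries and lines for the mean ± SD (n = 3). For Pparg, Cebpa, Adipoq, Cidec, Fabp4 and Slc2a4, WT CM lies between the other groups. For Hp, Serpina3n, Lcn2, Saa3, Il33 and Tnfsf11 it lies above both.

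Many matrix genes of preadipocytes were present after differentiation in WT CM at levels near, above or moderately below the starting point, while others fell further. Timp1, an inhibitor of matrix proteases, was at 203, 246 and 204 CPM in the undifferentiated libraries and 234, 248 and 197 CPM in the WT CM libraries. The groups overlapped, with a log2 fold change of 0.06 ± 0.10 (95% interval -0.15 to 0.26, adjusted p = 0.682), while regular differentiation had 27.7 ± 5.79 CPM (3.04 ± 0.13 for WT CM against regular). The intervals of the log2 fold change were -0.19 to 0.13 for Fbln2, a fibulin of elastic fibres, -0.26 to 0.24 for the adhesion receptor Vcam1, -0.28 to 0.05 for the protease Adamts1 and -0.41 to 0.15 for tissue plasminogen activator, Plat. None of these was called, and each was higher than after regular differentiation, by 2.17 ± 0.08, 2.00 ± 0.16, 1.86 ± 0.09 and 3.05 ± 0.21. On total counts, Fbln2, Adamts1 and Plat were called lower (-0.23, -0.31 and -0.33). Thbs1, thrombospondin 1, was at 669, 528 and 659 CPM in the undifferentiated libraries and 508, 487 and 527 CPM in the WT CM libraries, with no overlap, and fell by 0.29 ± 0.09 with 59.2 ± 6.63 CPM after regular differentiation. Fn1, fibronectin, fell by 0.57 ± 0.07 from 4090.1 ± 99.4 to 2753 ± 228 CPM, with 785 ± 28.6 CPM after regular differentiation.

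A second set of matrix genes exceeded the preadipocyte level. Spp1, osteopontin, was at 1373, 1264 and 1372 CPM in the undifferentiated libraries and 3649, 3728 and 4164 CPM in the WT CM libraries, a change of 1.53 ± 0.08 where regular differentiation had 87.2 ± 4.25 CPM. Tnn, tenascin N, was at 3.4, 4.25 and 6.17 CPM in the undifferentiated libraries and 177, 139.7 and 186 CPM in the WT CM libraries, a change of 5.15 ± 0.19, and at 1.4 CPM after regular differentiation. Dcn, the proteoglycan decorin, was at 136, 69.4 and 87.9 CPM in the undifferentiated libraries and 720.5, 901 and 957 CPM in the WT CM libraries, a change of 3.13 ± 0.42 (adjusted p = 2.60e-04). The type VI collagen gene Col6a3 rose by 1.86 ± 0.09 and the collagen lysyl hydroxylase Plod1 by 1.71 ± 0.08, both also above regular differentiation (0.64 and 0.28). By list, fibrillar collagens and their processing had 14 of 25 tested members higher and 8 lower (median 0.33, regular -0.82), and 20 were higher than after regular differentiation and none lower. Col1a1 and Col11a1 fell (-0.67 ± 0.10 and -1.64 ± 0.31). In the basement membrane 11 rose and 1 fell of 14 (median 1.04), led by Nid2 (3.84 ± 0.21) and Col15a1 (3.14 ± 0.22). Of 24 matrix glycoproteins and proteoglycans 8 rose and 11 fell (median -0.12, regular -1.24), against 27.9% higher and 20.7% lower among all tested genes. The largest falls were those of Mfap4, Fmod (-2.11 ± 0.21) and Tnc, followed by Fbn1, the fibrillin of microfibrils (-1.22 ± 0.10). In matrix proteases and inhibitors 8 rose and 3 fell of 20 (median 0.13, or -0.07 on total counts, regular -1.33). Adam12 rose by 3.68 ± 0.36 and Mmp9, a gelatinase, fell (-3.44 ± 0.44, or -4.05 without WT CM replicate 3).

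Progenitor genes did not move together. Of 17 tested, 3 rose and 9 fell (median -0.54, regular -1.60), and 11 were higher than after regular differentiation. Pdgfra, the PDGF receptor that marks fat progenitors, was at 62.4, 55.3 and 52.4 CPM in the undifferentiated libraries and 199, 195 and 222 CPM in the WT CM libraries, a change of 1.86 ± 0.11, with 53.9 ± 8.35 CPM after regular differentiation. Ly6a, the progenitor surface protein Sca-1, rose by 0.95 ± 0.10 and Ccn5, a matricellular protein of preadipocytes, by 3.01 ± 0.25. Thy1, a fibroblast surface protein, was at 418, 465 and 446 CPM in the undifferentiated libraries and 391, 366 and 403 CPM in the WT CM libraries. Its WT CM libraries all lay below the undifferentiated ones, but the change of -0.19 ± 0.09 was not called (adjusted p = 0.0768), and it was called in 5 of the alternative settings. Sox9, a transcription factor of undifferentiated mesenchyme, fell (-2.11 ± 0.16), as did Gata2, which restrains adipogenesis (-1.50, SE 0.38), and Pdgfrb (-0.77 ± 0.25). The Pdgfrb call was lost without WT CM replicate 1 or without undifferentiated replicate 1 or 3 (-0.77, -0.81 and -0.75), and with the replicate block (-0.78). In the contractile and TGF-beta group 5 rose and 13 fell of 23 (median -0.65, regular -1.67). Acta2, smooth muscle actin, was at 57.9, 66.6 and 59.6 CPM in the undifferentiated libraries and 8.86, 6.44 and 10.6 CPM in the WT CM libraries, a change of -2.78 ± 0.22, and Myl9, Ccn2 and Tagln fell (-3.18 ± 0.27, -3.44 ± 0.43 and -2.96 ± 0.22). Tgfbr2, a TGF-beta receptor, rose by 0.81 ± 0.15. In adhesion and integrins 3 rose and 5 fell of 15, with Itga7 up by 5.17 ± 0.31 and Itga3 lower (-1.99 ± 0.34).

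**Figure D5:**
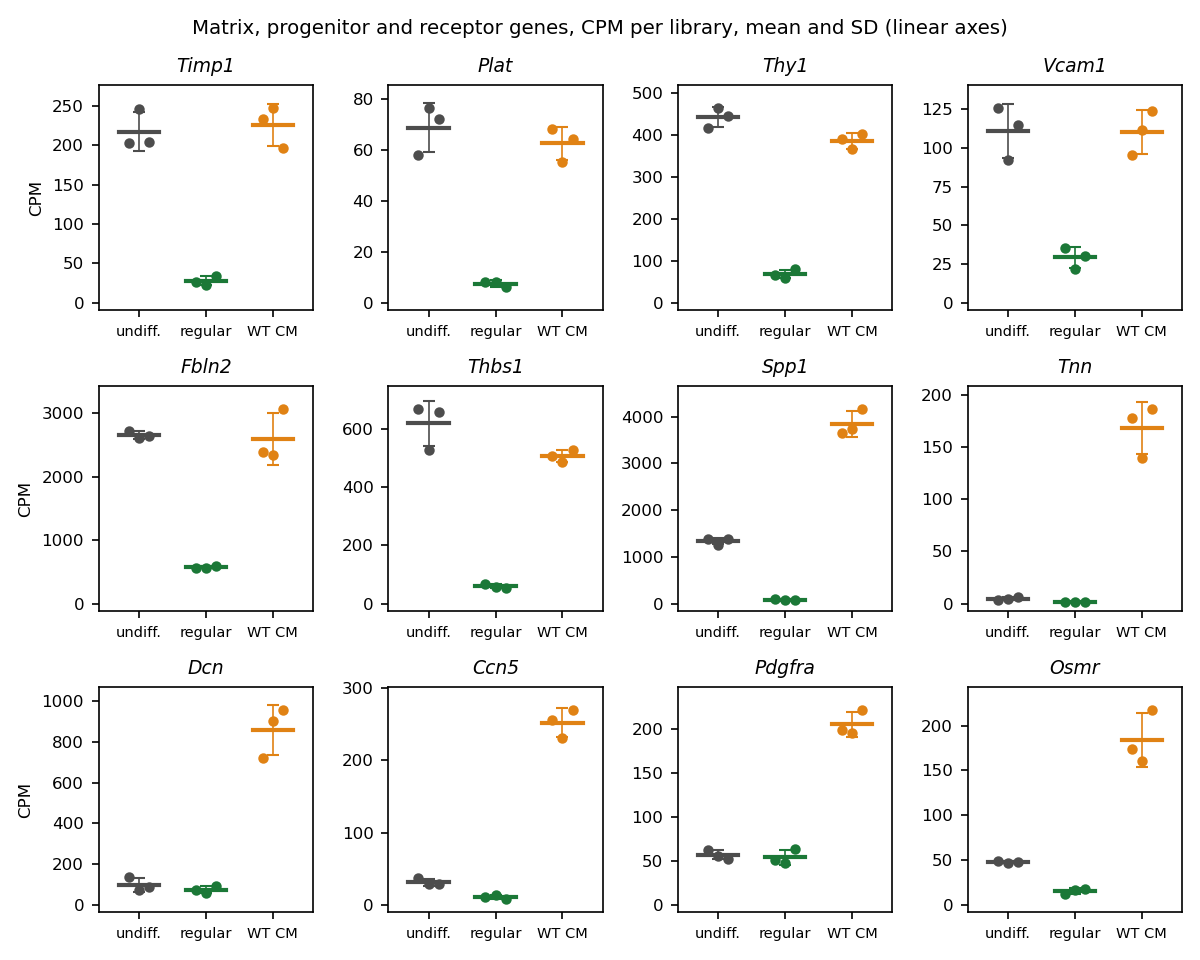
CPM of 12 matrix, progenitor and receptor genes in each library of undifferentiated cells (grey), regular differentiation (green) and WT CM (orange), on linear axes, with points for libraries and lines for the mean ± SD (n = 3). Timp1, Plat, Vcam1 and Fbln2 overlap between WT CM and undifferentiated cells and are low after regular differentiation. Among the groups shown, Spp1, Tnn, Dcn, Ccn5, Pdgfra and Osmr are highest with WT CM.

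Most of the tested interferon-induced genes fell. Of 25 tested, 21 fell and 1 rose (median -2.41, regular -3.05). Isg15, a ubiquitin-like protein attached to others under interferon, was at 628, 461 and 433 CPM in the undifferentiated libraries and 32.7, 22.5 and 30 CPM in the WT CM libraries. All WT CM libraries were far below, a change of -4.15 ± 0.16, and regular differentiation was lower still at 14.8 ± 2.3 CPM. Ifit1, which binds foreign RNA, was at 85.7, 103 and 75 CPM in the undifferentiated libraries and 4.77, 2.58 and 3.97 CPM in the WT CM libraries, a change of -4.50 ± 0.27. Oasl2, Ifit3b, Mx2, Ifit3 and Usp18, which removes Isg15 from proteins, fell (-4.56 ± 0.28, -4.80 ± 0.39, -4.48 ± 0.41, -4.12 ± 0.55 and -4.16 ± 0.23). Without WT CM replicate 3, the change of Oasl2 was -5.22. Irf1, a regulator that also responds to NF-kappaB, rose by 0.67 ± 0.12, and Ifi27 (579.9 and 548 CPM) was called lower only on total counts (-0.28). Cd74, the chaperone of MHC class II, was at 155, 175 and 185 CPM in the undifferentiated libraries and 6.82, 9.66 and 8.37 CPM in the WT CM libraries, a change of -4.35 ± 0.18. MHC class I presentation went otherwise, with 8 of 16 higher and none lower (median 0.38), including H2-K1 (1.23 ± 0.09) and the peptide transporter Tap2 (1.31 ± 0.20), while B2m was not called (-0.10 ± 0.41). On total counts 6 were higher and 3 lower, the latter being H2-D1 (-0.25), Psmb10 (-0.32) and Psme1 (-0.25), and Psmb10 was also called lower without undifferentiated replicate 3 (-0.31). Tapbp and Psme2 lost their higher calls on total counts (0.04 and 0.12) and in other alternatives, and Psmb8 lost it without WT CM replicate 2 (0.54). The adjusted p of the called genes named here was at most 1.60e-04 by edgeR's quasi-likelihood test.

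The promoters of Ifit1 (chr19:34640639-34640938, plus strand) and Isg15 (chr4:156200769-156201068, minus strand) are shown, from the same RefSeq table and window, because both genes fell together and hold several copies of the letters GAAANNGAAA. This is the core of the interferon-stimulated response element, searched on both strands and given in capitals, and copies in Isg15 overlap.
Ifit1: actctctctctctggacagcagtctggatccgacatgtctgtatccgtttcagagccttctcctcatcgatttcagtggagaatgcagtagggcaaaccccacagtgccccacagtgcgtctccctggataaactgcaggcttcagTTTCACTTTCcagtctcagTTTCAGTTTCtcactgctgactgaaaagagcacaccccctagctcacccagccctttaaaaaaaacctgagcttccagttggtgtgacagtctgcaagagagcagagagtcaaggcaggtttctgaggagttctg
Isg15: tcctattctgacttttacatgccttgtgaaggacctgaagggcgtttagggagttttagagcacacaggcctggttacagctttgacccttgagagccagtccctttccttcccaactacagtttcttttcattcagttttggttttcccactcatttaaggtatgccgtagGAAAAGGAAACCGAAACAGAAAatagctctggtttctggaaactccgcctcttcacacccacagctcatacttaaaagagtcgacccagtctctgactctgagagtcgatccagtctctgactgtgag
The copies start at -104 and -85 in Ifit1 and at -78, -72 and -66 in Isg15. Of 17 interferon list members with a promoter in the table, 9 held the letters, against 3.57% of tested genes and 3.44% of all promoters.

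Chemokines, which recruit leukocytes, were mixed. Of 11, 3 rose, near the background of 27.9%, and 6 fell, against a background of 20.7% (median -0.48). All 11 fell with regular differentiation (median -2.80), and 9 were higher with WT CM than after regular differentiation. Ccl2, which attracts monocytes, was at 289, 248 and 295 CPM in the undifferentiated libraries and 171, 201 and 223 CPM in the WT CM libraries. It fell by 0.48 ± 0.10 (adjusted p = 7.64e-05, edgeR's quasi-likelihood test), and regular differentiation had 15.6 ± 3.21 CPM. Cxcl10 and Ccl5 fell (-4.30 ± 0.55 and -2.47 ± 0.28). Cxcl12, a retention signal for leukocytes, rose by 0.34 ± 0.08, not called on total counts (0.14), and its scavenger receptor Ackr3 by 1.19 ± 0.20. The NF-kappaB group had 11 of 18 tested members higher and 3 lower (median 0.55, regular -0.51). Bcl3, an I-kappaB family cofactor, rose by 2.20 ± 0.18, the endotoxin co-receptor Cd14 by 1.96 ± 0.22 and the prostaglandin E synthase Ptges by 1.81 ± 0.14, while Ptgs2, cyclooxygenase 2, fell by 2.55 ± 0.29. Immediate early genes had 12 of 18 tested members higher and 3 lower (median 0.75, regular -0.20). Fos rose by 2.14 ± 0.13, and Junb was at 285, 239 and 267 CPM in the undifferentiated libraries and 973, 1010.1 and 825 CPM in the WT CM libraries, a change of 1.82 ± 0.10. Klf4 fell by 1.62 ± 0.10.

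Proliferation genes were low. Of 22 tested mitosis genes 21 fell and none rose (median -1.99, regular -1.64), and of 22 DNA replication genes 21 fell and none rose (median -1.18, regular -0.998). Ube2c, the ubiquitin carrier of the anaphase-promoting complex, was at 227, 240.2 and 213 CPM in the undifferentiated libraries and 34.1, 39.3 and 48.5 CPM in the WT CM libraries, a change of -2.45 ± 0.12, and was also lower than after regular differentiation (70.2 ± 6.25 CPM, -0.77 ± 0.14). The mitotic kinesins Kif23 and Kif20a fell (-3.04 ± 0.29, or -3.78 without WT CM replicate 3, and -2.79 ± 0.19), as did the condensin subunit gene Ncapd2 (-1.56 ± 0.18) and the replicative helicase subunit Mcm5 (-2.58 ± 0.20). The Ube2c promoter (chr2:164769679-164769978, plus strand, same RefSeq table) is shown for the cell-cycle homology region letters TTTGAA, in capitals as they read on the gene's strand.
Ube2c: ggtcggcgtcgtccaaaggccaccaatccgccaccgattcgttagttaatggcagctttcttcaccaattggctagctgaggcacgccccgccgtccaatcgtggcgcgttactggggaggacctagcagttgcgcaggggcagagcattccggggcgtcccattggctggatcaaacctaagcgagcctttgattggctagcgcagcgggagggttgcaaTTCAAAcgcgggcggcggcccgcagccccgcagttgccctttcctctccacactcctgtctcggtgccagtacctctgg
The match starts at -29. Of 18 mitosis genes with a promoter in the table, 14 held TTTGAA, against 13.4% of tested genes, and 15 held CCAAT, against 43.2%.

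Serine synthesis and one-carbon enzymes were split, and some lay below both undifferentiated and regularly differentiated cells. Phgdh, the first enzyme of serine synthesis, was at 301, 306 and 291 CPM in the undifferentiated libraries and 83.2, 59.2 and 94.3 CPM in the WT CM libraries, a change of -1.91 ± 0.11, with 205 ± 10.5 CPM after regular differentiation (-1.35 ± 0.11). Shmt2 and Mthfd2, of mitochondrial one-carbon metabolism, fell (-1.81 ± 0.09 and -1.39 ± 0.09) and were lower than after regular differentiation (-0.33 ± 0.10 and -0.75 ± 0.10). Psph, the last enzyme of serine synthesis, and Shmt1 also fell (-1.32 ± 0.10 and -1.67 ± 0.34) and were lower than after regular differentiation (-0.42 and -1.30). Aldh1l2 fell (-1.22 ± 0.10) and was not called against regular differentiation (0.15). Psat1, the middle enzyme of serine synthesis, was not called (0.05 ± 0.09, 95% interval -0.13 to 0.23), nor was Mthfd1l (-0.27 ± 0.19), which was called lower on total counts (-0.47). In the whole list of ER stress, serine and one-carbon genes 9 of 28 rose, near the background of 27.9%, and 13 fell (median -0.10). Dnajb9 and Xbp1, of the ER folding response, rose by 2.70 ± 0.15 and 1.93 ± 0.09. Other genes lower than in both were Abcc4, an exporter of cyclic nucleotides (-1.87 ± 0.29), the small proteoglycan gene Fmod (-2.11 ± 0.21), the histone chaperone gene Npm3 (-1.81 ± 0.34), the anchor of protein kinase A Akap12 (-1.52 ± 0.22) and the pseudokinase gene Trib3 (-1.19 ± 0.10). Of p53 targets 2 rose and 11 fell of 20 (median -0.30), with Plk2 lower (-2.83 ± 0.14) and Btg2 up by 2.11 ± 0.12. The other rise was that of Ddb2, a call lost in 6 alternatives. Trp53 itself fell by 1.45 ± 0.23 and checks no label, since p53 was altered in WEP cells.

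The 12 largest falls also took in Ptprv, a receptor phosphatase (count ratio of undifferentiated to WT CM cells of 74.9 (20.4 to 624)), the cardiac troponin gene Tnnt2 (-4.34 ± 0.40, or -5.43 without WT CM replicate 3) and Gm5886 (-4.30 ± 0.37), whose level is uncertain. The 12 largest rises by fitted fold change also took in the short-chain fatty acid receptor Ffar2, the sulfotransferase Sult1a1 and the lactate receptor Hcar1. All were absent from the undifferentiated counts and higher by at least 127-fold, 110.4-fold and 77.8-fold. The fitted size of genes at 0 depends on the prior count, so their rank is uncertain. Hp, outside these 12, rose 348-fold, above each of those bounds. Some genes moved in opposite directions with WT CM and with regular differentiation. Osmr, the receptor subunit for oncostatin M, was at 48.2, 46.8 and 47.8 CPM in the undifferentiated libraries and 174, 161 and 218 CPM in the WT CM libraries, a change of 1.96 ± 0.12, and fell to 15.3 ± 2.98 CPM after regular differentiation (-1.58). Il13ra1, a receptor chain for IL-4 and IL-13, rose by 2.29 ± 0.32 with WT CM and fell to 3 counts with regular differentiation, a count ratio of undifferentiated to regular cells of 8.34 (2.53 to 43.3). The protease inhibitor gene Slpi changed by 2.75 with WT CM and -1.93 with regular differentiation, and Ctla2a, a cathepsin inhibitor, by 3.20 and -1.53. In the other direction, Wdr6 changed by -0.48 (not called without WT CM replicate 1, -0.36) and 0.82, and the ATP-gated channel gene P2rx3 by -0.69 and 0.39. Genes that regular differentiation changed and WT CM did not, by the calls, included Adam8, a membrane protease (-0.14 ± 0.21 with WT CM, -3.73 ± 0.35 with regular differentiation), and Rasl11b (-0.65 ± 0.40 and 1.97 ± 0.28). Both differed between WT CM and regular differentiation, by 3.59 ± 0.35 and -2.61 ± 0.31.

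Glucocorticoid response genes, which dexamethasone induces, had 14 of 16 tested members higher and 1 lower (median 1.97, regular 1.40), including Fkbp5, a glucocorticoid receptor co-chaperone (2.15 ± 0.10), and Hsd11b1, which regenerates active glucocorticoid (5.72 ± 0.18). Sgk1 fell by 1.13 ± 0.10. In cholesterol synthesis and uptake 5 of 24 rose, against a background of 27.9%, and 10 fell (median -0.20). Abca1, a cholesterol exporter, rose by 2.80 ± 0.24. The antioxidant list had 6 of 23 tested members higher, near the background of 27.9%, and 8 lower, with Mgst1 up by 2.65 ± 0.09 and Txnrd1 lower (-1.21 ± 0.16). Proteasome subunits had 2 of 21 tested members higher and 13 lower (median -0.34), translation factors 3 of 18 higher and 7 lower (median -0.24, 6 higher without WT CM replicate 3) and lysosomal genes 11 of 23 higher and 2 lower (median 0.27, 6 lower on total counts), with Psap, the precursor of the saposins, up by 1.56 ± 0.26. Wnt and BMP signalling had 10 of 19 tested members higher and 4 lower (median 0.43), and Id2, an inhibitor of helix-loop-helix factors, fell by 2.91 ± 0.32. The authors' deposited table put 2121 genes higher and 1790 genes lower with WT CM at an adjusted p under 0.05, of which 1993 and 1704 had a call in the same direction here.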

How the data were processed

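Per the file headers, the deposited table held raw UMI counts per gene and library from MARS-seq, a 3' method that counts molecular identifiers, made from 30 ng of RNA per sample per the labels' protocols. The submitters' processing notes name cutadapt, HTSeq, DESeq2 and mm10. The aligner is not given in the sources used here, nor is the annotation. The table also held the authors' log2 fold changes and adjusted p-values for WT CM against undifferentiated cells, which the authors deposited with positive values for preadipocytes. A further 24 columns of normalized and regularized values were not used here.

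The test used edgeR 4.0.16 and limma 3.58.1 under R 4.3.3: filterByExpr with the 4 groups (minimum count 10), which kept 9378 of 11022 genes, TMM scaling and a robust quasi-likelihood fit to all 12 libraries (common biological coefficient of variation 9.38%), with Benjamini-Hochberg adjustment over all tested genes. The lowest highest count of any gene in the table was 6. CPM are per TMM-scaled library, as mean ± SD (n = 3). SE and 95% intervals come from the F statistic. A gene with 0 counts in a group has its fold set against 3 counts over that group (0.586 CPM undifferentiated, 0.562 CPM regular, 0.567 CPM WT CM). With 1 to 3 counts, the ratio of scaled counts has an exact 95% interval. Both cover counting error only. Code was tested on simulated counts. Alternatives were RLE factors, total counts, no filter, DESeq2 1.42.0, a replicate block, 6 libraries only, and leaving out each library.

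Members and lists were chosen with earlier results of these data known. Named genes were the 12 highest and 12 lowest, and the 10 higher and 8 lower than both undifferentiated and regularly differentiated cells. Added to these were 5 per direction with opposite changes and 5 per direction changed by regular differentiation alone. All of these had a mean of at least 20 CPM. Up to 4 leading, 3 contrary and 2 uncalled members per list were also named. Others were chosen after their values were seen.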

Additional observations from a re-analysis of the deposited data

Results flagged for a closer look

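By the calls, 154 of 9378 tested genes changed in opposite directions from undifferentiated cells with WT CM and with regular differentiation. Of these, 139 were higher and 15 lower with WT CM. For each, the difference was also called in the direct edgeR test of WT CM against regular differentiation. That call is no separate support. It was required of the genes picked, and opposite called changes against the same undifferentiated libraries nearly fix it. The 5 per direction with the largest smaller change are given first. Those higher with WT CM were Tnn (log2 difference 6.92, 168 ± 24.7 against 1.4 ± 0.374 CPM), Il13ra1 (5.18, a count ratio of 41 (13.7 to 202)), Ctla2a (4.74, 91.5 ± 12.6 against 3.38 ± 0.354 CPM), Slpi (4.68, 261 ± 41.7 against 10.2 ± 3.67 CPM) and Osmr (3.54, 184 ± 29.8 against 15.3 ± 2.98 CPM). Those lower with WT CM were Wdr6 (-1.30, 44.7 ± 7.47 against 112 ± 17.9 CPM), Plekhg5 (-1.13, 34.6 ± 5.86 against 75.1 ± 2.13 CPM), P2rx3 (-1.08, 26.9 ± 5.1 against 56.5 ± 5.75 CPM), Dipk2a (-1.04, 28.6 ± 5.18 against 59.2 ± 4.18 CPM) and Phpt1 (-0.81, 63.6 ± 2.58 against 113 ± 6.88 CPM). In each pair of values no WT CM library overlapped with a regular one. Over all 9378 tested genes, 2061 lay wholly above and 1983 wholly below in that comparison. The lower level than in undifferentiated cells was less secure. Plekhg5 (-0.40 ± 0.16, adjusted p = 0.0413, edgeR's quasi-likelihood test) overlapped between WT CM and undifferentiated libraries and was not called with DESeq2 (-0.45), without WT CM replicate 1 or 3 (-0.37 and -0.28) or without undifferentiated replicate 1 or 3 (-0.44 and -0.34). Dipk2a and Wdr6 were not called without WT CM replicate 1 (-0.41 and -0.36). Among other genes described or picked by list, the difference was 5.93 for Grem1, 5.47 for Spp1, 4.51 for Ccn5, 3.73 for Col12a1, 2.93 for Bcl3, 2.89 for Ackr3, 2.58 for Ly6a, 2.18 for Ccl9, 1.90 for Ier3, 1.11 for Cxcl12 and -0.93 for Id1. The rise of Cxcl12 over undifferentiated cells was not called on total counts (0.14), nor that of Ccl9 without undifferentiated replicate 3 (0.72).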

How the results depend on the processing

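Counts of genes stayed within 1.5 times the main count in 67 of 68 combinations of comparison and alternative. The exception was total counts, where genes lower with WT CM than in undifferentiated cells numbered 3004 instead of 1942. Genes higher with WT CM numbered 2168 to 2533 and lower ones 1725 to 2030 when 1 library was left out, 2118 and 1790 with DESeq2, 2369 and 2223 with RLE factors, 2551 and 2342 with no filter, and 2202 and 2107 on 6 libraries only. Over the named genes and list members, WT CM against undifferentiated cells gave 8917 combinations of gene and alternative, of which 325 lost a call, 124 gained one and none reversed the direction of a called gene. Directions of other genes were not compared. With the replicate block the counts were 2608 and 1937. Deviations of WT CM and undifferentiated libraries of the same number correlated at -0.0657, -0.0331 and -0.00671. These values gave no sign of pairing by number. They cannot exclude a shared batch, since counting noise in single libraries can hide it. Counts of list members moved by more than 1.5 times in 36 of 936 combinations and list medians by at least 0.1 in 92 of 468, 38 of them on total counts. On total counts the members lower numbered 7 for matrix proteases, 8 for adhesion and 7 for mitochondrial ribosomal proteins, instead of 3, 5 and 0. Members higher in cholesterol synthesis and uptake numbered 3 instead of 5 without undifferentiated replicate 2. For p53 targets, members higher numbered 1 instead of 2 in 6 alternatives, where Ddb2 lost its call. These were DESeq2 (0.61), 6 libraries only (0.62), total counts (0.46), and leaving out WT CM replicate 2 or undifferentiated replicate 1 or 3. Medians changed sign on total counts for matrix proteases (-0.07) and mitochondrial ribosomal proteins (-0.05). Low-count genes limit what can be read: genes at 0 in undifferentiated cells have lower bounds only.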
